A study of Saccharomyces cerevisiae with 27 samples.

Results

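The 10 genes described here encode enzymes that build the branched-chain amino acids isoleucine, valine and leucine in Saccharomyces cerevisiae. They were chosen by name (ILV1, ILV2, ILV6, ILV5, ILV3, LEU4, LEU1, LEU2, BAT1 and BAT2) and found through the gene symbol that the probe annotation gives to each probe set. All 10 were measured, out of 5656 tested genes. LEU2 had 3 probe sets, of which the brightest was used, and each of the other genes had 1.

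The cells were of strain X2180-1A in every group, grown with aeration in 500 ml fermentors on a buffered minimal medium with 2% glucose and no added amino acids, so that the branched-chain amino acids had to be made by the cells. Samples of unstressed cells, kept at 28 °C, came from 0, 120 and 240 min, at an OD600 of 0.50, 0.88 and 1.5. The stressed cultures were brought from 28 °C to 41 °C within 5 min and sampled after 10, 30, 60, 120, 240 and 360 min at 41 °C. Each of the 9 groups held 3 samples labelled as biological replicates, each on its own one-colour Affymetrix array, and the 3 heat and 3 control cultures were each sampled repeatedly. No control was taken at 10, 30, 60 or 360 min, so these times were compared with the control at 0 min.

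Isoleucine and valine are made by parallel reactions on the same enzymes. Threonine deaminase (Ilv1) opens the isoleucine branch, and acetolactate synthase (Ilv2 with its regulatory subunit Ilv6), the reductoisomerase Ilv5 and the dehydratase Ilv3 then act in both, inside the mitochondrion. The keto acid precursor of valine also feeds leucine synthesis through isopropylmalate synthase (Leu4 and its isozyme Leu9), the isomerase Leu1 and the dehydrogenase Leu2. The aminotransferases Bat1 (mitochondrial) and Bat2 (cytosolic) carry out the last step. In yeast the pathway is known to be under general amino acid control by Gcn4 and, for several of these genes, under the factor Leu3, which responds to isopropylmalate.

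Signals are given as scaled array signal, in the arbitrary unit of the deposited values after quantile normalization over the tested genes, which multiplied the members' deposited signals by 0.89 to 1.29. Changes are log2 differences of the scaled signal plus 113.81, with the SE from limma, and a gene was called higher or lower where its Benjamini-Hochberg adjusted p over all 5656 genes lay below 0.05. A signal of 1 probe set cannot be set against that of another, so genes are compared by their changes. On the same arrays HSP104, the disaggregase, and SSA4, a stress-induced Hsp70, were higher than at 0 min in heat of every time, by 2.45 to 3.10 and by 3.15 to 4.89 on the log2 scale. Array measures differed between the conditions. The mean signal of 19 control probe sets for non-yeast transcripts was 85.4 to 105 on the control arrays, 57.7 to 94.7 at 10 min and 42.8 to 64.2 at later heat times. For SRB4, the signal at the 3' end divided by that at the 5' end averaged 2.27 ± 0.24 (SD, n = 3) in unstressed cells at 0 min, 4.17 ± 0.22 after 30 min of heat and 5.10 ± 0.44 after 360 min. For ACT1 the same ratio was 0.98 ± 0.013, 1.11 ± 0.037 and 1.06 ± 0.024, so the 2 genes differed in how far it changed. The part of these measures in the results was not tested directly. A fit with the non-yeast level as a term kept the call, or the lack of one, of 153 of 190 member results. Only some of the calls that it changed are given. This level did not overlap between the control arrays and the heat arrays from 30 min on, so such a fit cannot tell it apart from heat. The lowest member signal on any array was 381, above the non-yeast levels. In RNA from whole cultures, fewer transcripts per cell and fewer cells that hold them cannot be told apart.

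In the unstressed cultures no member was called different from 0 min by limma at 120 min or at 240 min, with log2 differences of -0.25 to 0.04 and of -0.21 to 0.09. At an unadjusted p under 0.05, 1 member, BAT2, and 97 of all genes would pass at 120 min, and BAT2 and 220 of all genes at 240 min, with 0 and 4 genes called after adjustment (at 240 min 0.0354% of all genes lower and 0.0354% higher). Both extremes on the lower side were those of BAT2 (-0.25 ± 0.09 and -0.21 ± 0.09), which had signals of 2269.9, 2035 and 2423 at 0 min and of 1692, 1906 and 2025 at 120 min.

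**Figure D1:**
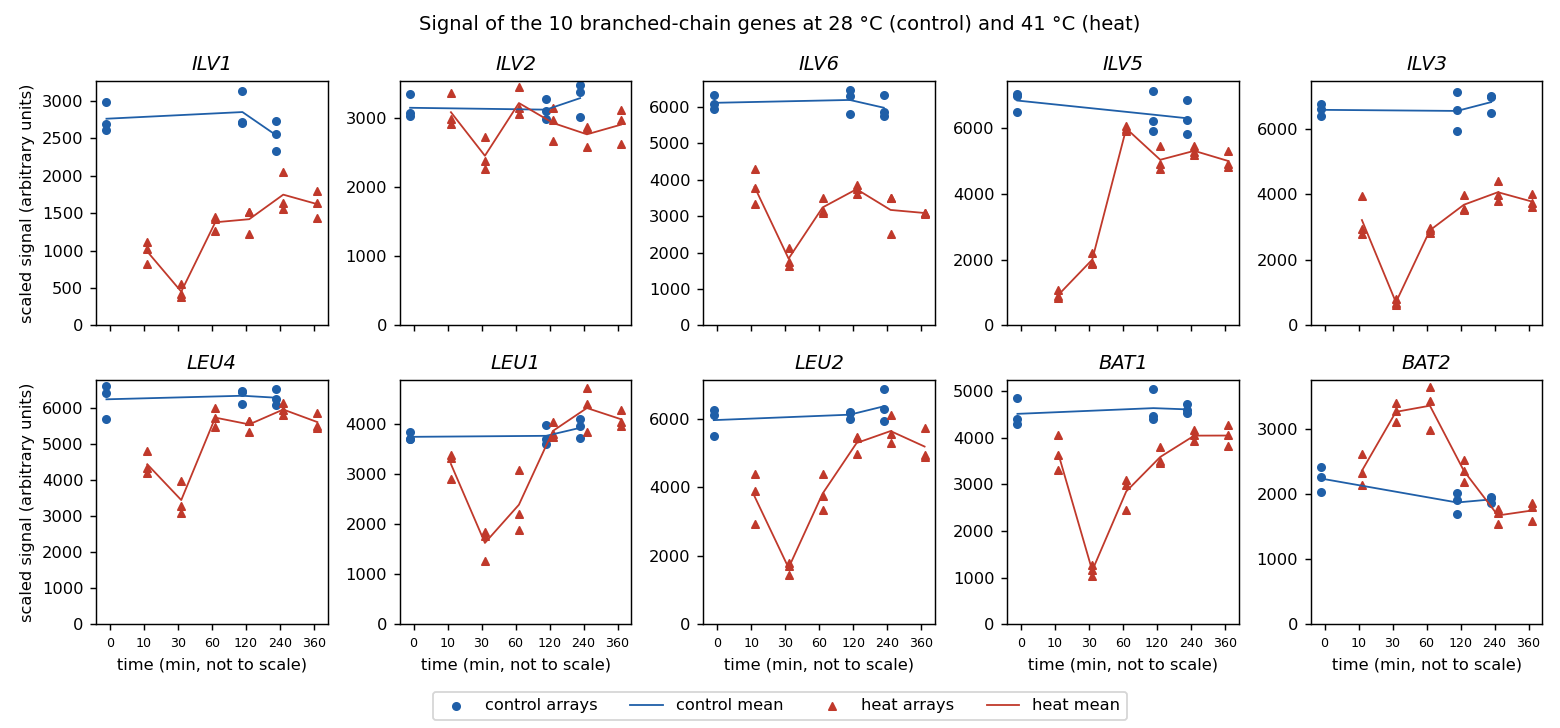
Scaled signal (y axis, arbitrary units, from 0) of each of the 10 genes against time (x axis, in min, steps not to scale) in control cultures at 28 °C (circles) and in cultures at 41 °C (triangles). Each point is 1 array and the lines join group means of 3 arrays; 8 genes have their lowest heat mean at 30 min, ILV5 at 10 min, and BAT2 has its highest at 60 min.

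After 10 min at 41 °C, 7 of the 10 genes were lower than at 0 min and none was higher, against 38.8% of all tested genes lower and 33.8% higher. Of the members, 3 (ILV1, ILV3 and ILV5) were lower by at least 2-fold, against 7.58% of all genes. The median log2 change of the 10 was -0.58, and that of all genes -0.04. At 30 min 9 were lower and 1, BAT2, was higher, against 40.2% and 40.7% of all genes, and the median of the members reached -1.70, with that of all genes at 0. Of the members, 7 were then lower by at least 2-fold, against 14.2% of all genes. At 60 min 7 were lower and 1 was higher (37.4% and 31.8% of all genes), with a median of -0.64 against -0.04. From 120 min on the median lay at -0.24 to -0.27, where that of all genes lay at -0.02 to -0.03, and 6, 5 and 5 members were lower at 120, 240 and 360 min (36.2%, 34.1% and 35.2% of all genes). The comparisons share the control arrays at 0 min and are not independent of each other.

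**Figure D2:**
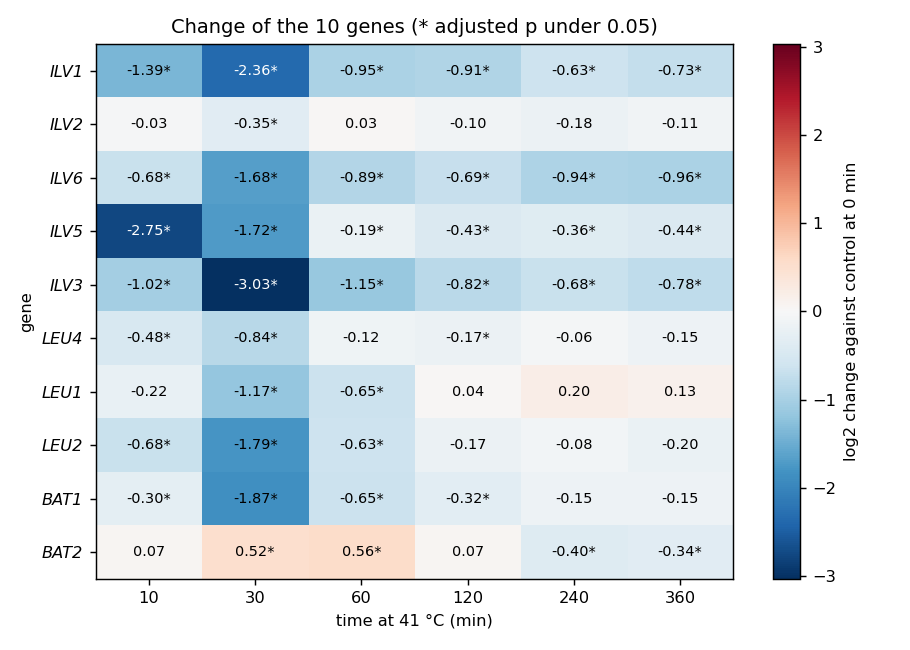
Log2 change of each gene (rows, in pathway order) against the control at 0 min at the 6 heat times (columns, min at 41 °C), 3 arrays against 3. Colour and number give the change and an asterisk marks an adjusted p under 0.05; the lowest values are -3.03 for ILV3 at 30 min and -2.75 for ILV5 at 10 min.

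Among the enzymes shared by isoleucine and valine, ILV5 had its lowest level at 10 min, earlier than the others. This reductoisomerase, also known in yeast for a role in the stability of mitochondrial DNA, had signals of 6972, 7027 and 6469 at 0 min and of 888, 1063 and 823 after 10 min. All 3 heat arrays lay below every one of the 9 control arrays, whose lowest was 5798. The change was -2.75 ± 0.08 (adjusted p = 1.27e-18), which ranked 5 from the lowest of the 5656 genes. ILV5 then went up, while ILV2, ILV6 and ILV3 were lower at 30 min than at 10 min. At 30 min its signals were 2213, 1876 and 1903, a rise of 1.03 ± 0.08 over 10 min (adjusted p = 2.18e-10), whereas 8 of the 10 members were lower at 30 min than at 10 min (26.0% of all genes) and only ILV5 and BAT2 were higher (33.5% of all genes). At 60 min ILV5 had reached 5910.4, 5968 and 6046, 87.6% of its level at 0 min. That last difference, -0.19 ± 0.08 with an adjusted p of 0.049, stood at the threshold and lost its call with any of 5 of the 6 arrays left out, at -0.17 to -0.20. Later values were 5279.6, 4886 and 4801 at 360 min, below all control arrays, with a change of -0.44 ± 0.08 (adjusted p = 6.44e-05).

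ILV3, which encodes the iron-sulfur dehydratase of the following step, showed the deepest trough of the 10. Its signals were 6742, 6393 and 6599 at 0 min, 2777, 3942 and 2928 at 10 min and 689, 815 and 618 at 30 min. The groups did not overlap, and at 30 min the mean stood at 10.7% of that at 0 min. The change of -3.03 ± 0.10 (adjusted p = 2.13e-18) ranked 17 from the lowest among all genes. Between 30 and 60 min ILV3 rose by 1.88 ± 0.10 (adjusted p = 7.63e-14) to 2827, 2976 and 2908. The 3 arrays at 360 min (3604, 4003 and 3734) lay below all control arrays, the lowest of which was 5927, with a change of -0.78 ± 0.10 (adjusted p = 4.21e-07). With the non-yeast level as a term this value was -0.35 and lost its call (adjusted p = 0.115). From 30 min on such a fit cannot tell that level apart from heat, for ILV3 or other genes, so nothing is drawn from it.

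ILV1, the threonine deaminase at the entry to isoleucine, had signals of 2688, 2988 and 2616 at 0 min, of 1028, 1122 and 816 at 10 min and of 381, 558 and 419 at 30 min. These are falls of 1.39 ± 0.12 and 2.36 ± 0.12 on the log2 scale (adjusted p = 4.38e-10 and 1.15e-14). ILV1 came back in part, to 1428, 1262 and 1449 at 60 min and 1798, 1434 and 1636 at 360 min. The last change, -0.73 ± 0.12 (adjusted p = 1.71e-05), became -0.25 and lost its call with the non-yeast level as a term (adjusted p = 0.398). All 18 heat arrays lay below all 9 control arrays, as they also did for ILV3, ILV6 and BAT1. How many of all tested genes did so was not counted, so nothing particular to the members is drawn from this.

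For acetolactate synthase, the enzyme that makes the precursors of isoleucine and valine, the regulatory subunit had the larger changes. The catalytic subunit ILV2 changed least of the members called lower at 30 min. It had 3349, 3068 and 3034 at 0 min, 2981, 2919 and 3359 at 10 min and 2375, 2259.8 and 2732 at 30 min, where its arrays lay below all controls (-0.35 ± 0.08, adjusted p = 0.00049). At the other 5 heat times it was not called against 0 min, with changes of -0.18 to 0.03, though with 1 median per array it was at 120, 240 and 360 min (-0.36, -0.49 and -0.47). The regulatory subunit ILV6, which makes the enzyme sensitive to valine, went from 5948, 6318 and 6071 at 0 min to 3783, 4296 and 3332 at 10 min and 1735, 2126 and 1643 at 30 min (-1.68 ± 0.10, adjusted p = 2.58e-13). After 360 min it read 3101, 3091 and 3071, 50.5% of the level at 0 min and the lowest such share of the 10 genes (-0.96 ± 0.10, adjusted p = 2.97e-08). With the non-yeast level as a term it was -0.38 and no longer called (adjusted p = 0.0553).

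Within arrays, the change of ILV6 less that of ILV2 was -0.65 ± 0.17 (SE, n = 3 per group) at 10 min, -1.34 ± 0.19 at 30 min and -0.84 ± 0.10 at 360 min. The groups did not overlap at any of the 6 times, with an exact two-sided permutation p of 0.1 each, the smallest that 3 samples against 3 can give. Adjusted over the 18 such tests made on 3 pairs of genes, the p was 0.112. These pairs were picked after their values were seen.

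In the leucine branch, the isopropylmalate synthase gene LEU4 fell by 0.84 on the log2 scale at 30 min, where LEU1 and LEU2, of the next steps, fell by 1.17 and 1.79. The difference between them was not tested. Its signals were 5693, 6599 and 6415 at 0 min, 4319, 4791 and 4197 at 10 min and 3284, 3960.5 and 3085 at 30 min, below all controls (-0.84 ± 0.07, adjusted p = 1.54e-10). By 60 min it had 5722, 5476 and 5987, which overlapped the controls at 0 min (-0.12 ± 0.07, adjusted p = 0.149). A small call at 120 min (-0.17 ± 0.07, adjusted p = 0.0466) ended in 5 of the 6 fits that left out 1 array, at -0.12 to -0.18, and with the non-yeast level as a term the value was 0.09.

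LEU1, the iron-sulfur isomerase, had the highest level of the 10 at 360 min relative to 0 min, at 109%. It had 3690.2, 3683 and 3835 at 0 min, 2905, 3311 and 3372 at 10 min, all lower but not called (-0.22 ± 0.13, adjusted p = 0.118), and 1847, 1262 and 1756 at 30 min (-1.17 ± 0.13, adjusted p = 8.26e-09). The 3 arrays at 60 min were spread widely, at 3068, 1878 and 2203, all still below the controls (-0.65 ± 0.13, adjusted p = 7.35e-05). From 60 to 120 min LEU1 rose by 0.70 ± 0.13 (adjusted p = 0.000173) to 3734, 4028 and 3799.7, and at 240 min its arrays read 4390.1, 3843 and 4700.1. With 0.20 ± 0.13 at 240 min (adjusted p = 0.175) it was not called higher than at 0 min, with a 95% interval of -0.06 to 0.46, but was in a fit of these 6 arrays alone (adjusted p = 0.0443).

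LEU2, the isopropylmalate dehydrogenase gene used widely as a selection marker, had 5491, 6119 and 6266 at 0 min, 3884, 4399 and 2914 at 10 min and 1792, 1703 and 1445 at 30 min (-1.79 ± 0.11, adjusted p = 5.08e-13). It rose by 1.15 ± 0.11 from 30 to 60 min (adjusted p = 3.98e-09), to 4381, 3328 and 3734, and at 120 min read 5456, 5439 and 4977. These arrays lay just below the lowest control, 5491, and the difference was not called (-0.17 ± 0.11, adjusted p = 0.195). Its 3 probe sets were all lowest at 30 min and differed in the size of the change. On the deposited scale the set used here changed by -1.96 at 30 min and -0.27 at 360 min, and the other sets by -2.52 and -2.36 at 30 min and by -0.60 and -0.39 at 360 min. With all 3 averaged, LEU2 was called lower at 360 min (-0.31, adjusted p = 0.0297) where the brightest set alone was not (-0.20, adjusted p = 0.128).

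**Figure D3:**
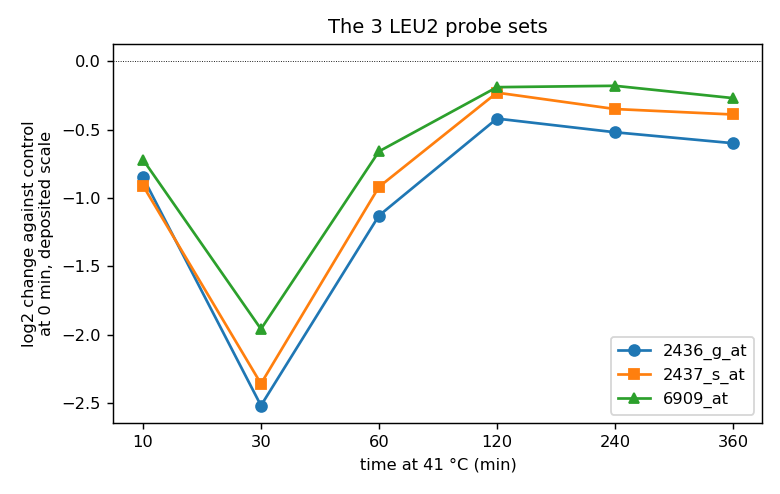
Log2 change of the deposited signal of LEU2 (plus the same offset) against the control at 0 min (y axis) at the 6 heat times (x axis, min at 41 °C), 1 line per probe set, each point from the means of 3 arrays and 3 control arrays. All 3 probe sets are lowest at 30 min, at -1.96, -2.36 and -2.52.

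The aminotransferase genes went in opposite directions at 30 and 60 min. BAT1, the mitochondrial enzyme, had 4399, 4845 and 4285 at 0 min, 3625, 4056 and 3299.8 at 10 min and 1272, 1153 and 1028 at 30 min, a change of -1.87 ± 0.09 (adjusted p = 9.81e-16). It rose by 1.22 ± 0.09 between 30 and 60 min (adjusted p = 1.03e-11) and read 3817, 4262 and 4056 at 360 min, just below the controls, whose lowest array was 4285. The last change, -0.15 ± 0.09, was not called (adjusted p = 0.121).

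BAT2, the cytosolic enzyme, had 2269.9, 2035 and 2423 at 0 min and 2145, 2329.6 and 2613 at 10 min, which overlapped (0.07 ± 0.09, adjusted p = 0.484). At 30 min it had 3113, 3284 and 3410.2 and at 60 min 2993, 3656 and 3443, all above the 9 control arrays (0.52 ± 0.09 and 0.56 ± 0.09, adjusted p = 8.55e-06 and 5.99e-06). It then fell from 60 to 120 min by 0.49 ± 0.09 (adjusted p = 0.000173) and from 120 to 240 min by 0.47 ± 0.09 (adjusted p = 0.000513), to 1778, 1538 and 1709, lower than at 0 min (-0.40 ± 0.09, adjusted p = 0.000435). Set beside the 240 min control, its heat value at 240 min was -0.19 ± 0.09 (adjusted p = 0.068). Within arrays the change of BAT2 less that of BAT1 was 2.40 ± 0.17 (SE, n = 3 per group) at 30 min and 1.21 ± 0.21 at 60 min, without overlap (exact two-sided permutation p = 0.1 each, 0.112 adjusted over the 18 tests). At 240 and 360 min it was -0.24 ± 0.15 and -0.19 ± 0.13, and the groups overlapped (exact permutation p = 0.3 each).

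**Figure D4:**
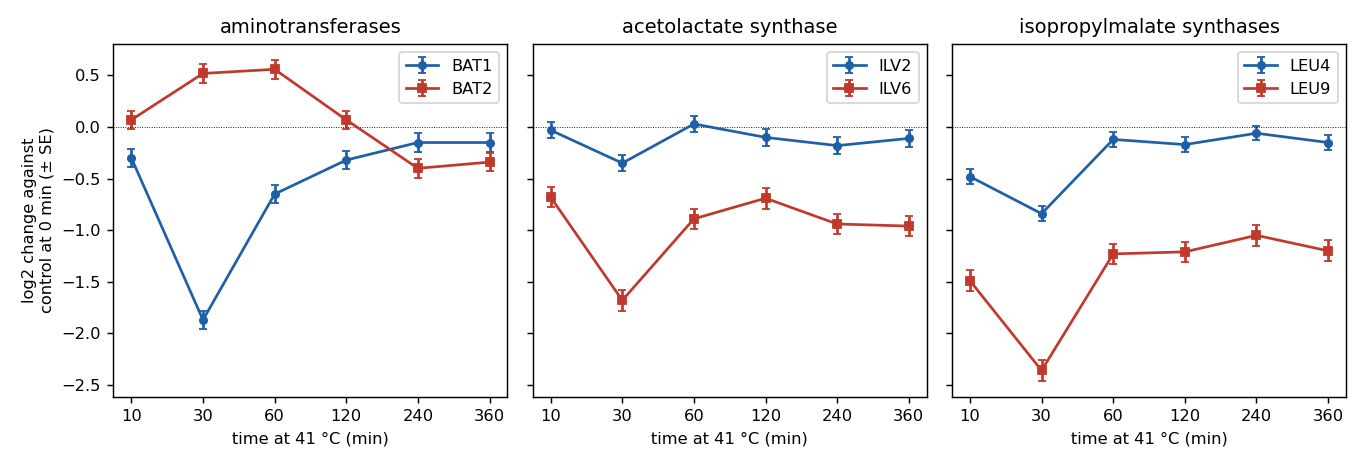
Log2 change ± SE (y axis, limma, 3 arrays against 3) against the control at 0 min at the 6 heat times (x axis, min at 41 °C) for the aminotransferase genes BAT1 and BAT2, the acetolactate synthase subunits ILV2 and ILV6 and the isopropylmalate synthase genes LEU4 and LEU9. BAT2 is above 0 at 30 and 60 min where BAT1 is below it, and ILV6 and LEU9 lie below their partners at all 6 times.

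Against controls of the same time the picture at 120 min was that of the comparison with 0 min, except that BAT2 was called. Here 6 members were lower (35.6% of all genes), namely ILV1 (-0.95 ± 0.12), ILV3 (-0.81 ± 0.10), ILV6 (-0.71 ± 0.10), BAT1 (-0.36 ± 0.09), ILV5 (-0.34 ± 0.08) and LEU4 (-0.19 ± 0.07, lost in 3 of the 6 fits that left out 1 array, at -0.16 to -0.18), and BAT2 was higher (0.32 ± 0.09, adjusted p = 0.00287, with 33.3% of all genes higher). The BAT2 call ended at 0.18 with 1 median per array and at 0.22 with the non-yeast level as a term. At 240 min 5 were lower (33.0% of all genes) and none higher (28.3%), led by ILV6 (-0.91 ± 0.10) and ILV3 (-0.73 ± 0.10), with ILV1 at -0.52 ± 0.12 and both ILV2 and ILV5 at -0.24 ± 0.08. Without replicate 1 of the control at 240 min the count was 3, as ILV2 (-0.20) and ILV5 (-0.18) lost their calls. The heat effect at 240 min differed from that at 120 min for 1 member, BAT2, by -0.51 ± 0.12 (adjusted p = 0.0106), where 5.18% of all genes were lower and 5.45% higher in this difference. After 360 min, set against the control at 240 min, the latest taken, 5 members were lower and none higher (34.8% and 31.0% of all genes). These were ILV6 (-0.93 ± 0.10), ILV3 (-0.83 ± 0.10), ILV1 (-0.62 ± 0.12), ILV5 (-0.32 ± 0.08) and LEU2 (-0.29 ± 0.11). The LEU2 call ended in 4 of the 6 fits that left out 1 array, at -0.23 to -0.30.

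From 30 to 60 min 9 of the 10 genes rose and none fell (32.2% and 39.4% of all genes), by 0.38 ± 0.08 for ILV2 to 1.88 ± 0.10 for ILV3, and BAT2 was not called (0.04 ± 0.09). From 60 to 120 min LEU1, LEU2 (0.47 ± 0.11), ILV3 (0.33 ± 0.10) and BAT1 (0.33 ± 0.09) rose further (18.3% of all genes), and BAT2 and ILV5 (-0.25 ± 0.08) were lower (15.7%). The ILV5 call of this interval ended in 4 fits without 1 array, those without replicate 2 or 3 of either time, at -0.21 to -0.25. The calls of ILV3 and BAT1 ended without replicate 1 at 120 min (0.27) and without replicate 2 at 60 min (0.23), respectively. From 120 to 240 min only BAT2 was called (11.0% of all genes lower and 10.0% higher), and from 240 to 360 min none of the members was, with changes of -0.12 to 0.07 (4.19% of all genes lower and 3.91% higher). At an unadjusted p under 0.05 the count of members from 240 to 360 min was also 0. Compared with 30 min, 9 members were higher at 360 min (35.6% of all genes) and BAT2 was lower by 0.86 ± 0.09 (42.1% of all genes). Compared with 10 min, 6 members were higher at 360 min and 2, BAT2 (-0.41 ± 0.09) and ILV6 (-0.28 ± 0.10), were lower (35.6% and 37.0% of all genes). ILV5 had the largest difference, 2.30 ± 0.08 (adjusted p = 1.89e-16). The call of ILV6 ended without replicate 2 at 10 min (-0.19), that of LEU1 in 2 fits without 1 array (0.28 and 0.32) and that of ILV3 in 4 (0.15 to 0.25).

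How far the genes came back depended on how the arrays were scaled. In quantile-normalized values the members' median at 360 min was -0.27 with 5 members lower than at 0 min. In the deposited values as they were it was -0.28 with 8 lower, and with each array brought to 1 median it was -0.53 with 9 lower. At 240 min the counts were 5, 7 and 9 in that order. The median of all genes at 360 min was -0.03, 0.13 and -0.07 in the same order. The deposited scale moved the median of all genes by 0.11 at 240 min and by 0.15 at 120 and 360 min. At 360 min it gave 3870 called genes, against 3787 after quantile normalization, and raised the share of calls that were higher from 47.5% to 64.9%. With 1 median per array that share was 41.9%. The share of all genes called lower is not given under these other settings, so the member counts are not set against it. With the non-yeast level as a term, which cannot be told apart from heat here, 3 members were lower at each of 120, 240 and 360 min. At 360 min these were not all among the 5 lower without the term. At 10 and 30 min 7 and 9 members were lower under each of the 3 scalings, but the sizes at 30 min moved. The members' median there was -1.70, -1.89 and -1.91 in the same order. At 30 min the deposited signals of ILV2 were 2122.5, 2165 and 2121, where the scaled ones were 2375, 2259.8 and 2732. Those of BAT2 were 2826, 3202 and 2649.5, where the scaled ones were 3113, 3284 and 3410.2.

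**Figure D5:**
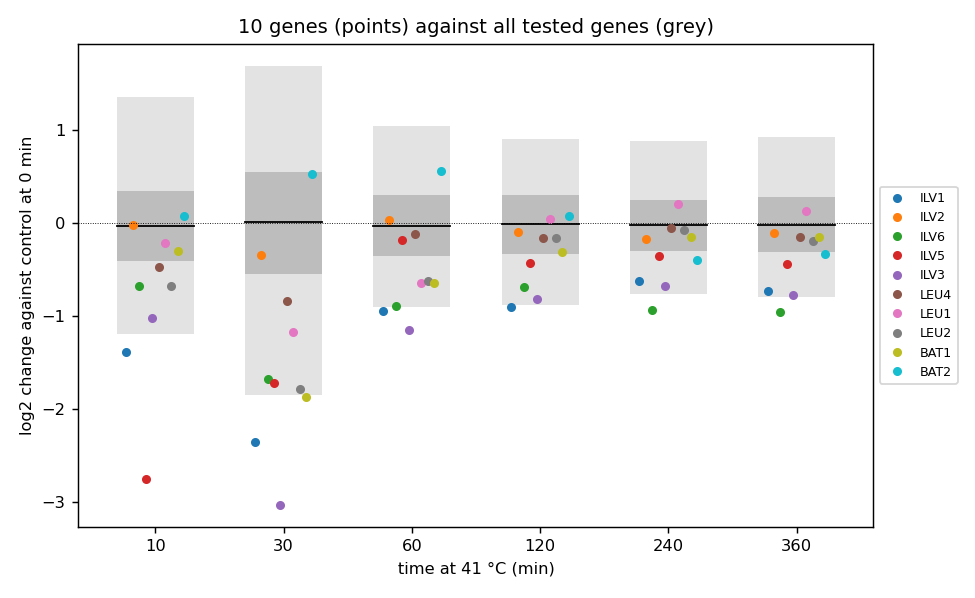
Log2 change against the control at 0 min (y axis) of the 10 genes (points, each from 3 arrays against 3) and of all 5656 tested genes (light grey, 5th to 95th percentile; dark grey, 25th to 75th; line, median) at the 6 heat times (x axis, min at 41 °C). At 30 min 3 of the 10 genes lie below the light grey range (ILV3, ILV1 and BAT1), and at 360 min 1 does (ILV6).

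Across the 9 group means, the profiles of the 9 genes other than BAT2 had Pearson correlations of 0.38 to 0.97 with each other (median 0.81 over 36 pairs), and BAT2 had correlations of -0.89 to -0.20 with them. The closest pairs, at 0.97, were ILV1 with ILV3, ILV3 with LEU2, ILV3 with BAT1 and LEU2 with BAT1, and the lowest value among the 9 was that of ILV2 with ILV5. All genes share the same arrays and cultures, so these values describe the 9 groups and carry no test. Outside the 10, the genes most like their mean profile were TSR4, a factor of ribosome assembly, and DUS3, a tRNA dihydrouridine synthase (r = 0.996 and 0.994 over the 9 groups), RIB3 (0.993), HOM3 (0.991) and ACL4 (0.991). RIB3, an enzyme of riboflavin synthesis, was also the gene most like ILV1 (0.996), and UMP1, a proteasome assembly factor, the one most like BAT2 (0.965). TSR4, DUS3 and ACL4 had lowest group means of 84.4, 67.3 and 22.6, near the non-yeast level.

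Among other genes tied to the branch, LEU9, the minor isozyme of isopropylmalate synthase, had 934, 977 and 778 at 0 min, 249, 309 and 185 at 10 min and 80.5, 99 and 69 at 30 min (-2.36 ± 0.10, adjusted p = 4.88e-16). The values at 30 min lay near the non-yeast level, and the size of this change depends on the offset added before the logarithm. Without an offset the mean signals differed 10.8-fold. At 360 min LEU9 had 305, 342 and 329 and was lower by 1.2 ± 0.10 (adjusted p = 9.03e-10). Its change less that of LEU4 was -1.01 ± 0.15 (SE, n = 3 per group) at 10 min and -1.05 ± 0.12 at 360 min, without overlap at either time (exact permutation p = 0.1, 0.112 adjusted). On the deposited scale the value at 360 min was -0.72. No size of this difference between LEU9 and LEU4 is drawn from 30 min, where it depends on the offset. LEU4 and LEU9, and BAT1 and BAT2, are related in sequence, and cross-hybridization between their probe sets was not tested.

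OAC1, the mitochondrial carrier that is known to export isopropylmalate, had 3025, 2872 and 3076 at 0 min, 696, 843 and 681 at 10 min and 843, 852 and 882 at 30 min (-1.87 ± 0.09 and -1.67 ± 0.09, both called lower), and the groups at 10 and 30 min overlapped (0.19 ± 0.09 between them, adjusted p = 0.0691). By 240 min it had 2649, 2949 and 3234, overlapping the controls (-0.03 ± 0.09, adjusted p = 0.819). The regulator gene LEU3 was lower at 10 and 30 min, by 0.28 ± 0.05 and 0.38 ± 0.05 (adjusted p = 1.82e-05 and 1.86e-07), and was not called later. Its mean signal was 222.7 at 0 min and 144.4 at 30 min, so these sizes depend on the offset. The transcript of GCN4, whose protein level is known to be set largely by translation, went from 6712, 7100.5 and 6712 at 0 min to 3669, 4123 and 3135 at 10 min and 3294, 3714 and 2928 at 30 min (-1.03 ± 0.08, adjusted p = 4.46e-11). At 60 min it read 6134, 6341 and 7063, overlapping the controls (-0.07 ± 0.08, adjusted p = 0.448). With the non-yeast level as a term, which cannot be told apart from heat, it was called higher (0.33, adjusted p = 0.017). Of the 8 genes of this list (LEU9, LEU3, LEU5, OAC1, GCN4, GCN2, GDH1 and MAE1), 7 were lower and 1 higher at 30 min, with a median of -0.98, where 40.2% of all genes were lower and 40.7% higher. At 360 min 2 of the 8 were lower, with a median of -0.11, where 35.2% of all genes were lower. Nothing particular to the list is drawn from that count. MAE1, the mitochondrial malic enzyme, was among the lower ones at 30 min (-2.20 ± 0.13).

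Of the 7 genes that make threonine or break it down, 6 were lower and 1 higher at 30 min (median -1.30), against the same 40.2% and 40.7% of all genes. The lower ones included the homoserine kinase THR1 (-2.31 ± 0.12), the aspartate kinase HOM3 (-1.73 ± 0.10), HOM2 (-1.36 ± 0.07) and the threonine synthase THR4 (-1.30 ± 0.07), which supply the substrate of Ilv1. Of 36 measured genes for histidine, lysine, arginine and aromatic amino acids, 33 were lower and 1 higher at 30 min, with a median of -1.54 beside the -1.70 of the branched-chain genes and the 40.2% and 40.7% of all genes called. HIS1 (-2.87 ± 0.09), LYS4 (-2.68 ± 0.11), LYS20 (-2.61 ± 0.09) and HIS3 (-2.58 ± 0.06) had the largest changes there. At 10 min 27 of them were lower and 2 higher with a median of -0.36, against 38.8% and 33.8% of all genes. At 360 min 29 were lower and 2 higher with a median of -0.52, against 35.2% and 31.8% of all genes.

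Genes around uptake, sensing and breakdown were called in both directions at 30 min, as were all genes (40.2% lower and 40.7% higher). Nothing particular to these lists is drawn from their counts. Of 8 permease genes 5 were lower and 1 higher at 30 min, and the 1 was BAP2, the high-affinity branched-chain permease, which went up with time in heat. Its mean signal was 152.1 at 0 min, 775.3 at 30 min and 1655 at 360 min (1.73 ± 0.17 and 2.71 ± 0.17, adjusted p = 1.20e-09 and 2.05e-12). The signal at 0 min was not far above the non-yeast level of 85.4 to 105 on control arrays, so these sizes depend on the offset. GNP1 (-1.65 ± 0.11), VBA1 (-1.19 ± 0.07) and GAP1 (-0.84 ± 0.17) were lower at 30 min. Of 10 genes for the breakdown of branched-chain keto acids to fusel alcohols, 3 were lower and 4 higher at 30 min, the latter including the decarboxylase genes PDC6 (mean signal 112.3 at 0 min and 1359 at 30 min) and ARO10 (37.8 and 163.3). Their signals at 0 min lay near or below the non-yeast level, so no size of change is given for them. ADH5 (-1.37 ± 0.14) and ATF2 (-0.71 ± 0.09, with a mean signal of 84.2 at 30 min, near that level) were lower. Of 7 measured genes in a list drawn up around leucine sensing, not all of them sensors, 2 were lower and 3 higher. The leucyl-tRNA synthetase CDC60 was at -2.80 ± 0.12 and GTR1 at -0.67 ± 0.09, and the kinase NPR1 (0.95 ± 0.09) and SLM4 (0.76 ± 0.07) were higher. Of 12 genes for the assembly of the iron-sulfur clusters that Ilv3 and Leu1 carry, 6 were lower and 4 higher at 30 min (median -0.21). They included the ferredoxin YAH1 (-1.68 ± 0.09), ISA1 (-1.31 ± 0.07), the frataxin YFH1 (-0.79 ± 0.07) and the mitochondrial Hsp70 SSQ1 (0.82 ± 0.10). The mean signal of SSQ1 at 0 min was 140, so the size of its change also depends on the offset.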

How the data were processed

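The deposited table held one linear intensity per probe set and array from one-colour Affymetrix yeast arrays. Per the submitters' processing notes, the authors derived the intensities with MAS5. Its version, and the target to which arrays were scaled, were not given in these sources. Of 9335 probe sets, 60 were controls, 6504 named 1 gene, 328 named several and 2443 named none. The brightest probe set stood for each gene, which gave 5656 tested genes. Array medians of the deposited intensity ran from 441.74 to 566.35, a ratio of 1.282 that exceeded the limit of 1.2 set for using the values unscaled, so the intensities were quantile-normalized. The log2 of the scaled intensity plus 113.81, the 10th percentile, was fitted with limma 3.58.1 in R 4.3.3 to the 9 group means over all 27 arrays, with a variance trend and Benjamini-Hochberg adjustment over all genes in each of 19 comparisons, at a threshold of 0.05. The number of arrays limits the precision. The fit was tested on simulated data.

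Differences of changes between 3 gene pairs were tested by exact permutation. The members and the gene lists were chosen with earlier results of these data known. All 10 members were described, and of each list the counts and up to 4 genes with the largest change among those called at 30 min, with LEU9, LEU3, GCN4 and OAC1 always named, as well as the genes whose group means were most like the members'. The alternatives were 13 other settings and leaving out each array in turn. A planned description of promoter motifs was not run, since promoter sequences were not used here.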

Additional observations from a re-analysis of the deposited data

Results flagged for a closer look

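The heat effect on BAT2, the cytosolic branched-chain aminotransferase gene, differed between the times that had a control of their own. It was 0.32 at 120 min and -0.19 at 240 min on the log2 scale, and the difference of -0.51 ± 0.12 passed limma's test with an adjusted p of 0.0106. In heat the 3 arrays read 2366, 2191 and 2525 at 120 min and 1778, 1538 and 1709 at 240 min, without overlap, and the controls read 1692, 1906 and 2025 and then 1942, 1860.1 and 1961, with overlap.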

How the results depend on the processing

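Of 3670 member results under alternative settings, 3526 kept their side of the threshold, 77 lost a call and 60 gained one. A further 7 turned direction with a call in the main fit, the other fit or both. Any turn without a call in either fit was not counted and lies among the 3526. The cause of these changes was not tested. With the non-yeast level as a term, the members lower than at 0 min numbered 3 at each of 120, 240 and 360 min, those lower than the control of the same time 3 at 120 min and 2 at 240 min, and 1 at 360 min against the control at 240 min; 2 were lower from 120 to 240 min and 0 higher at 120 min against its control. That term turned LEU4 at 120 min to 0.09 against 0 min and 0.08 against 120 min, LEU2 at 360 min against the control at 240 min to 0.10, ILV6 and LEU1 between 10 and 360 min to 0.17 and -0.06, and GCN4 at 60, 240 and 360 min to 0.33, 0.09 and 0.19. With 1 median per array 9 members were lower at 240 and at 360 min against either control, 0 were higher at 120 min against its control, 2 were higher from 60 to 120 min and 2 from 10 to 360 min, where ILV3 became -0.08 and LEU4 0, and OAC1 at 360 min became -0.29. The unscaled deposited values gave 8 members lower at 360 min against either control and 1 from 60 to 120 min. They raised the share of calls that were higher from 46.0% to 58.4% at 60 min, from 47.4% to 65.1% at 120 min and from 46.0% to 62.3% at 240 min. The shares of all genes called lower or higher are not given for the alternative settings, so the member counts under them are not set against all genes. A fit of the compared groups alone gave 1 member higher at 240 min (LEU1). Leaving out 1 array gave 3 to 5 lower at 240 min against its control, 1 to 2 from 60 to 120 min, 1 to 2 from 120 to 240 min (2 without heat replicate 3 at 240 min) and 1 to 2 from 10 to 360 min (1 without heat replicate 2 at 10 min).

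The change of LEU9 less that of LEU4 at 30 min was -2.30 with an offset of 20 and -1.13 with 200. Replicate numbers were not taken to pair the samples, since same-numbered arrays deviated together in 4 of 15 pairs of heat groups, 1 of 3 of control groups and 1 of 18 mixed ones. The closest were heat at 10 and 30 min, with a mean r of 0.54 for same-numbered arrays and -0.27 for others. The main fit took all arrays as independent, although repeated samples of 1 culture need not be. With the replicate block 188 of 190 member results kept their call, and BAT2 at 240 min against its control (-0.19, adjusted p = 0.0327) and LEU4 at 360 min against the control at 240 min (-0.16, adjusted p = 0.0428) gained one. With the culture as a random block, taken from the replicate number within heat or control, 189 of 190 kept their call. ILV5 at 60 min against 0 min lost it (-0.19, adjusted p = 0.0506).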
